A study of Sus scrofa with 12 samples.

Results

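This account covers the genes of insulin signalling and glucose uptake in longissimus dorsi, a long back muscle, in pigs of 2 breeds. The list takes in the insulin receptor, its substrates, the kinases that follow it, the brakes on glucose transporter movement, the transporter and the hexokinase of muscle. Of the 10 genes on that list, 9 had a row among the 23271 genes of the deposited table, taken by gene name, and all 9 passed the minimum of 0.5 FPKM for testing. AKT1 is the 10th and was not analysed here. The groups were Laiwu, a Chinese pig with much fat inside its muscle, and Yorkshire, a lean Western breed, with 6 libraries each. The study describes the animals as of equal weight. The sources used here give no age, sex, time of last feeding or treatment, and do not state that each library comes from an animal of its own, and p-values therefore reflect the spread between libraries, which may be technical in part. The question asked of each gene is whether its transcript level differs between the breeds.

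Insulin binds its receptor, a tyrosine kinase in the cell membrane, and the receptor phosphorylates the substrate proteins IRS1 and IRS2. The substrates recruit phosphoinositide 3-kinase, whose lipid product brings the kinase AKT to the membrane. AKT phosphorylates TBC1D4 and TBC1D1, proteins that hold vesicles inside the cell by switching off RAB GTPases, and the vesicles then carry the glucose transporter SLC2A4 (GLUT4) to the surface. Hexokinase traps the glucose that enters as glucose 6-phosphate. Skeletal muscle takes up a large part of the glucose cleared after a meal by this route. It acts through phosphorylation and transport of proteins, none of which was measured here: the values are transcript levels.

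Libraries held 54961358 to 67285809 counts assigned to genes. Genes of the skeletal muscle fibre were at high levels in every library. Together, 7 fibre markers summed to between 49555 and 67346 FPKM in Laiwu and between 51861 and 69334 FPKM in Yorkshire. Most of that sum was ACTA1, at a mean of 42762 FPKM. FPKM is a count corrected for sequencing depth and scaled per length and can be compared between genes. The longissimus is a tissue of several cell types, and in such samples fewer cells of a type and less RNA per cell cannot be told apart. Each library's deviation from its breed mean was set against gene length over all tested genes, which are not independent replicates. Spearman's rho was -0.417 in Yorkshire 5 and between -0.153 and 0.231 in the other 11 libraries.

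All 9 genes were expressed in all 12 libraries, at mean levels from 2.11 to 45.6 FPKM, and for none of them was a difference between Laiwu and Yorkshire larger than the spread between libraries detected. The quasi-likelihood test of edgeR, with p-values adjusted by Benjamini-Hochberg over 11205 genes, called 0 of the 9, against a background of 0% of all genes tested. The lowest adjusted p among the 9 was 0.912, which was also the lowest of all genes tested and is shared by genes with different unadjusted p-values. At an unadjusted p under 0.05 there were 0 of the 9, where 4.44% of all genes tested lay under it. The FPKM ranges of the breeds overlapped for all 9, and 0.178% of tested genes had ranges that did not. Of the 9, 5 had a fitted log2 fold change (Laiwu minus Yorkshire) above 0 and 4 below, with a median of 0.01, while 49.7% of all tested genes lay above 0 and their median was -0.00131. The estimates that lay farthest from 0 were those of HK2 and TBC1D1, lower in Laiwu, and of INSR, TBC1D4 and IRS2, higher in Laiwu, and each 95% confidence interval included 0.

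**Figure D1:**
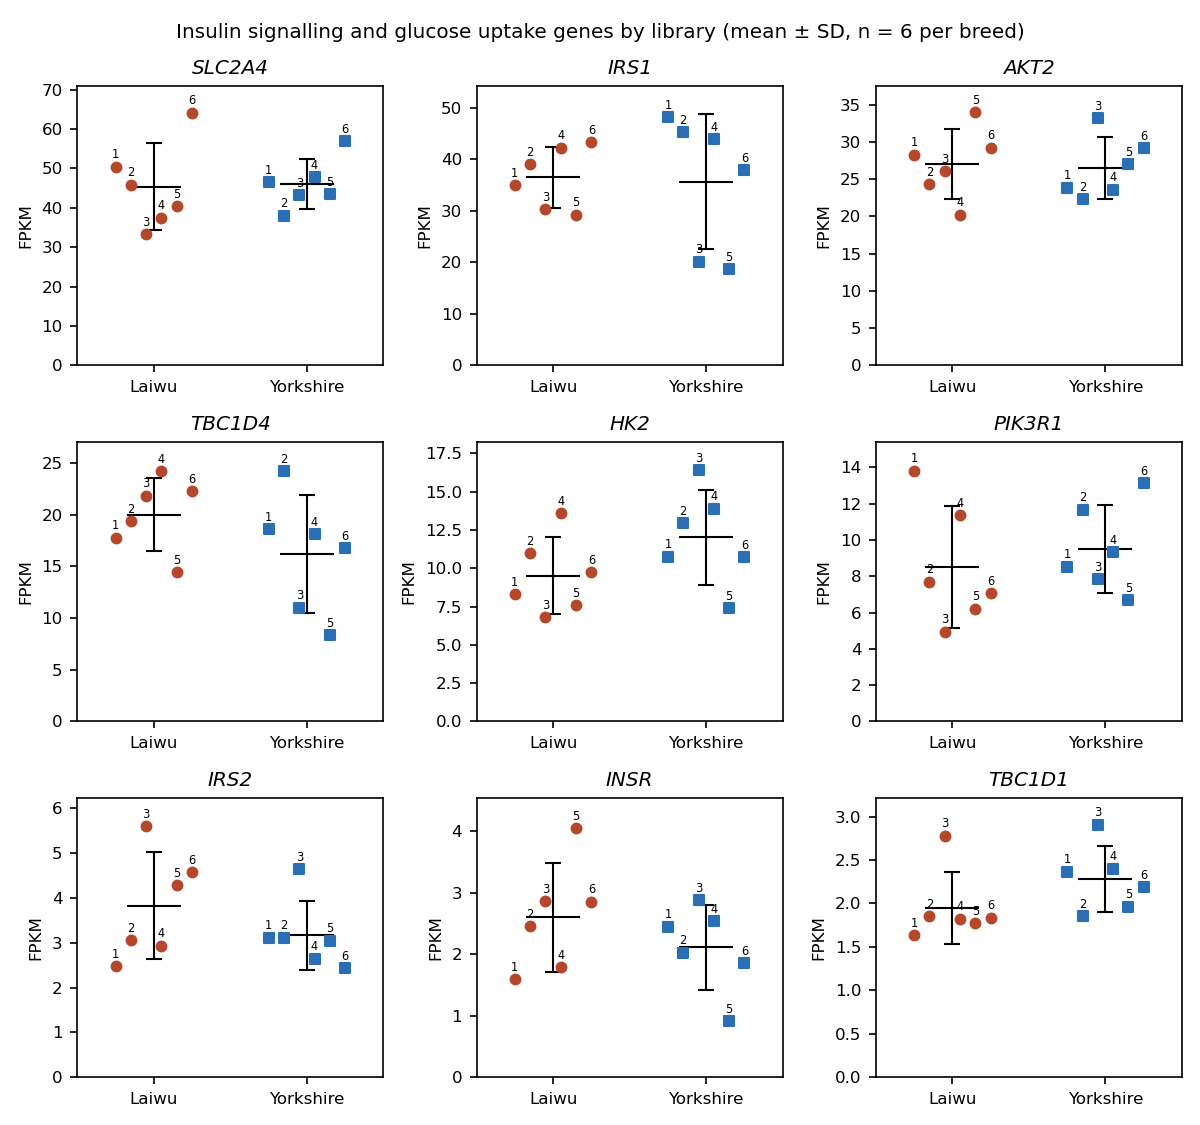
FPKM of the 9 genes in each library, ordered by mean level, with Laiwu as circles and Yorkshire as squares, numbers giving the library, and bars giving the mean ± SD over 6 libraries. The breeds overlap in every panel, and Yorkshire 3 and Yorkshire 5 are the lowest libraries for both IRS1 and TBC1D4.

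By level, SLC2A4 stood first with a mean of 45.6 FPKM over the 12 libraries, followed by IRS1 at 36.1, AKT2 at 26.8, TBC1D4 at 18.1, HK2 at 10.8 and PIK3R1 at 9.02 FPKM. IRS2, INSR and TBC1D1 were the scarcest, at means of 3.49, 2.36 and 2.11 FPKM. The order of neighbours did not hold in each library. SLC2A4 exceeded IRS1 in 9 of 12 libraries, IRS1 exceeded AKT2 in 9, AKT2 exceeded TBC1D4 in 10, and HK2 exceeded PIK3R1 in 10. IRS2 exceeded INSR in 12 of 12 libraries, by a median ratio of 1.54. INSR and TBC1D1 could not be ordered, with INSR the higher in 7 of 12. The level of SLC2A4 lay at the 94.7th percentile of tested genes and that of TBC1D1 at the 32.7th.

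INSR encodes the insulin receptor (ENSSSCG00000013566, Sscrofa11.1 chromosome 2, 71797204 to 71936104, plus strand). In Laiwu it ran from 1.59 to 4.05 FPKM with a median of 2.66, and in Yorkshire from 0.911 to 2.88 FPKM with a median of 2.24. Its highest level was in Laiwu 5 and its lowest in Yorkshire 5, a 4.44-fold span that was the widest of the 9 genes. Yorkshire 5, with 332 counts of INSR, is the library whose deviation had a Spearman's rho of -0.417 with gene length. Laiwu averaged 2.60 ± 0.885 FPKM and Yorkshire 2.11 ± 0.693 FPKM (SD, n = 6 each). The log2 fold change was 0.29 ± 0.24 (SE), with a 95% confidence interval from -0.23 to 0.81 and an edgeR adjusted p of 0.912. Without Laiwu 5 it was 0.12 and without Yorkshire 5 it was 0.14. The receptor of insulin-like growth factor 1, IGF1R, named here after its values were seen because it can pair with the insulin receptor, was lower still at 1.32 ± 0.318 and 1.25 ± 0.479 FPKM.

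IRS1 (ENSSSCG00000025729, chromosome 15, 128245846 to 128307284, minus strand) and IRS2 (ENSSSCG00000034763, chromosome 11, 76626179 to 76653881, minus strand) encode the docking proteins that pass the signal from the receptor to phosphoinositide 3-kinase. IRS1 was the predominant transcript of the pair in each library. It ran from 29.3 to 43.3 FPKM in Laiwu with a median of 37.0, and from 18.7 to 48.2 FPKM in Yorkshire with a median of 40.8. The Yorkshire libraries fell apart into 4 between 37.8 and 48.2 FPKM and 2, Yorkshire 3 and Yorkshire 5, at 20.2 and 18.7 FPKM. The breed means were close, at 36.5 ± 5.96 and 35.7 ± 13.0 FPKM (SD, n = 6 each). On the log2 scale the fold change was 0.01 ± 0.24 (SE), with an interval from -0.51 to 0.53 and an edgeR adjusted p of 0.997. It was -0.14 without Yorkshire 3 and -0.12 without Yorkshire 5, and its sign changed in 5 of the 12 fits that left out 1 library.

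IRS2 ran from 2.48 to 5.59 FPKM in Laiwu with a median of 3.66, and from 2.44 to 4.63 FPKM in Yorkshire with a median of 3.07. The highest libraries were Laiwu 3 and Yorkshire 3, and 3 Laiwu libraries lay above the Yorkshire median and 3 below it. The means were 3.82 ± 1.19 and 3.16 ± 0.772 FPKM (SD, n = 6 each). edgeR gave a log2 fold change of 0.25 ± 0.18 (SE), with an interval from -0.14 to 0.64 and an edgeR adjusted p of 0.912, and it was 0.12 without Laiwu 3. The ratio of IRS1 to IRS2 within a library, which does not depend on library scaling, ran from 5.42 to 14.4 in Laiwu and from 4.35 to 16.6 in Yorkshire. It was lowest in the libraries numbered 3 and 5 of each breed. On the log2 scale the ratio averaged 3.30 ± 0.59 in Laiwu and 3.43 ± 0.84 in Yorkshire (SD, n = 6 each), a difference of -0.13 with an exact two-sided permutation p of 0.742, which stayed at 0.742 after adjustment over 2 ratios. Without Laiwu 3 the difference was 0.04.

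PIK3R1 encodes p85 alpha, the regulatory subunit that binds phosphorylated IRS proteins and carries the catalytic subunit of phosphoinositide 3-kinase (ENSSSCG00000016958, chromosome 16, 46511521 to 46523609, plus strand). The gene model of the deposited table covers 12089 bases, against 88870 bases in RefSeq on the same assembly (46434757 to 46523626), so exons outside the shorter model, if read, would not be in these counts. The models of AKT2 (32125 bases against 64688) and TBC1D4 (284394 against 217121) also differ from RefSeq in span, which limits the ranking of levels between genes. PIK3R1 ran from 4.94 to 13.8 FPKM in Laiwu with a median of 7.39, and from 6.67 to 13.1 FPKM in Yorkshire with a median of 8.93. Laiwu 1, Yorkshire 6, Yorkshire 2 and Laiwu 4 were the highest libraries, and the breeds overlapped over most of their range. The means were 8.52 ± 3.38 and 9.52 ± 2.43 FPKM (SD, n = 6 each), for which edgeR fitted a log2 fold change of -0.18 ± 0.27 (SE) with an interval from -0.76 to 0.40 and an edgeR adjusted p of 0.940. It was -0.39 without Laiwu 1 and -0.05 without Yorkshire 6. The within-breed SD of its log2 CPM, 0.52, was the largest of the 9 genes and lay at the 84.0th percentile of tested genes.

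AKT2 encodes the AKT kinase most closely tied to insulin-stimulated glucose transport (ENSSSCG00000002989, chromosome 6, 48555795 to 48587919, minus strand). It ran from 20.2 to 34.05 FPKM in Laiwu with a median of 27.2, and from 22.3 to 33.2 FPKM in Yorkshire with a median of 25.5. The highest and the lowest library were both Laiwu, Laiwu 5 and Laiwu 4. The means of 27.0 ± 4.70 and 26.5 ± 4.13 FPKM (SD, n = 6 each) gave a log2 fold change of 0.01 ± 0.13 (SE), with an interval from -0.26 to 0.28 and an edgeR adjusted p of 0.996. With 1 library left out it ran from -0.06 without Laiwu 5 to 0.08 without Laiwu 4. AKT2 had the smallest span of the 9 genes, 1.68-fold between the extreme libraries.

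TBC1D4, also called AS160, and TBC1D1 encode the GTPase activating proteins that keep SLC2A4 vesicles inside the fibre until AKT or other kinases phosphorylate them. TBC1D4 (ENSSSCG00000009464, chromosome 11, 47543815 to 47828208, minus strand) ran from 14.5 to 24.2 FPKM in Laiwu with a median of 20.6, and from 8.35 to 24.2 FPKM in Yorkshire with a median of 17.4. As for IRS1, Yorkshire 3 and Yorkshire 5 were the lowest, at 10.997 and 8.35 FPKM, and 5 of 6 Laiwu libraries lay above the Yorkshire median. The means were 20.0 ± 3.54 and 16.2 ± 5.70 FPKM (SD, n = 6 each). The log2 fold change was 0.27 ± 0.23 (SE), with an interval from -0.23 to 0.77 and an edgeR adjusted p of 0.912. It was 0.15 without Yorkshire 5, 0.16 without Yorkshire 3 and 0.46 without Yorkshire 2. Only the last of these had an unadjusted edgeR p under 0.05, at 0.048 (adjusted 0.781).

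TBC1D1 (ENSSSCG00000028983, chromosome 8, 29370481 to 29590571, plus strand) was the scarcer relative. It ran from 1.63 to 2.78 FPKM in Laiwu with a median of 1.83, and from 1.85 to 2.91 FPKM in Yorkshire with a median of 2.28. Apart from Laiwu 3, at 2.78 FPKM, the Laiwu libraries lay between 1.63 and 1.85 FPKM, and the lowest Yorkshire library, Yorkshire 2, was also at 1.85 FPKM. The means were 1.95 ± 0.414 and 2.28 ± 0.376 FPKM (SD, n = 6 each). edgeR gave a log2 fold change of -0.24 ± 0.12 (SE), with an interval from -0.51 to 0.02, an edgeR p of 0.0717 and an adjusted p of 0.912. It was -0.36 without Laiwu 3, with an edgeR p of 0.00362 and an adjusted p of 0.995. That omission removes the highest Laiwu library. The SE over all 12 libraries was the smallest of the 9 genes.

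The ratio of TBC1D1 to TBC1D4 within a library combines a lower estimate for TBC1D1 and a higher one for TBC1D4 in Laiwu. Its difference between the breed means is larger than that of either gene by construction, and it did not pass its test. TBC1D4 exceeded TBC1D1 by 7.86-fold to 13.3-fold in Laiwu and by 3.78-fold to 13.1-fold in Yorkshire. The log2 ratio averaged -3.36 ± 0.30 in Laiwu and -2.76 ± 0.66 in Yorkshire (SD, n = 6 each). The 6 Laiwu libraries ran from -3.73 to -2.97. Of the Yorkshire libraries, 5 lay between -2.97 and -1.92, and Yorkshire 2 lay within the Laiwu range at -3.71. The difference was -0.60, with an exact two-sided permutation p of 0.0714 and 0.143 after adjustment over 2 ratios. Without Yorkshire 2 it was -0.79, with an exact permutation p of 0.00433 and an adjusted p of 0.00866. That omission removes the 1 Yorkshire library inside the Laiwu range. Each of the other 11 omissions left the ratio short of the threshold, with exact permutation p-values adjusted to between 0.113 and 0.286, and the difference came nearest to 0 without Yorkshire 3, at -0.44 (adjusted exact permutation p = 0.281).

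**Figure D2:**
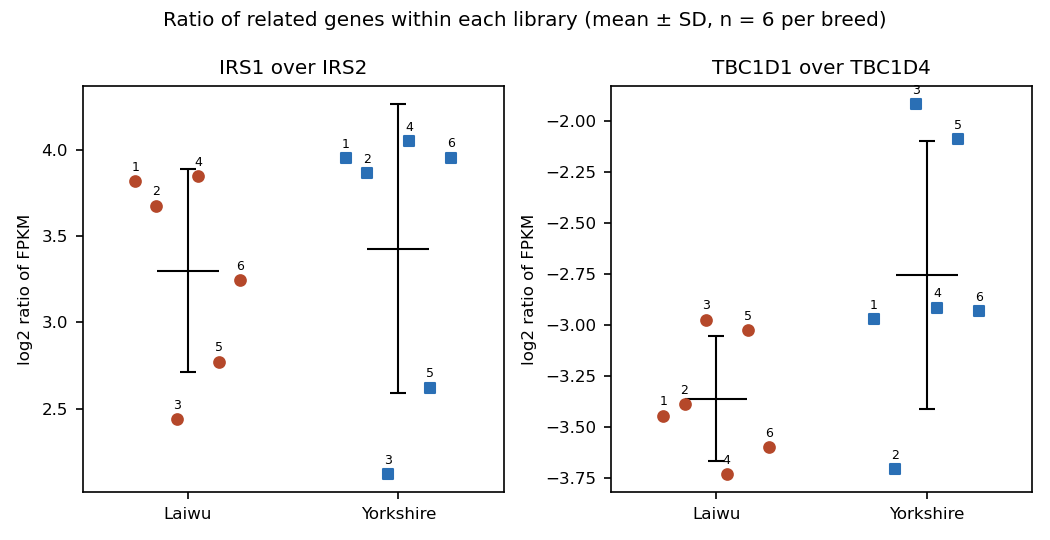
Log2 ratio of FPKM of IRS1 over IRS2 and of TBC1D1 over TBC1D4 within each library, with numbers giving the library and bars the mean ± SD over 6 libraries per breed. In the right panel Yorkshire 2, at -3.71, lies among the Laiwu libraries and the other 5 Yorkshire libraries lie at -2.97 or above.

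SLC2A4 encodes GLUT4, the insulin-responsive glucose transporter of muscle and fat (ENSSSCG00000023915, chromosome 12, 52628450 to 52634959, plus strand). It ran from 33.3 to 64.1 FPKM in Laiwu with a median of 43.2, and from 38.0 to 56.9 FPKM in Yorkshire with a median of 44.9. The library numbered 6 was the highest of each breed, and the 3 lowest libraries were Laiwu 3, Laiwu 4 and Yorkshire 2. The means were 45.3 ± 11.04 and 45.95 ± 6.33 FPKM (SD, n = 6 each). The log2 fold change was -0.04 ± 0.16 (SE), with an interval from -0.38 to 0.29 and an edgeR adjusted p of 0.978. It was -0.16 without Laiwu 6, 0.04 without Laiwu 3 and 0.05 without Yorkshire 6. SLC2A4 is also a gene of fat cells, and 14 adipocyte markers summed to between 354.1 and 501.2 FPKM in Laiwu and between 317.7 and 437.0 FPKM in Yorkshire, with none at 0. GPD1, an enzyme of glycerol metabolism that muscle expresses as well, made up most of that sum at a mean of 223.3 FPKM, with a log2 fold change of -0.17. Of the 13 tested markers, 10 had a fold change above 0 and 3 below, with a median log2 fold change of 0.73. The highest were 1.64 for ADIPOQ, 1.61 for PLIN1, 1.23 for CIDEC and 1.23 for PPARG. PLIN4 was at 0.30, and CFD at -0.0953 and PCK1 at -0.16 lay below 0 with GPD1. None was past the adjusted threshold. The adipocyte score is the mean of the 13 tested markers on the log2 CPM scale centred within breed. No relation of SLC2A4 with that score was detected. Pearson's r was 0.17 (permutation p = 0.62, adjusted 0.818) and Spearman's rho was -0.00699 (permutation p = 0.992, adjusted 0.992), over 12 libraries.

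HK2 encodes hexokinase 2, the isoform of insulin-sensitive tissues (ENSSSCG00000008261, chromosome 3, 68153835 to 68231615, minus strand). It ran from 6.80 to 13.6 FPKM in Laiwu with a median of 9.05, and from 7.38 to 16.4 FPKM in Yorkshire with a median of 11.9. Only 1 Laiwu library, Laiwu 4, lay above the Yorkshire median, and Yorkshire 5 lay among the lowest Laiwu libraries. The means were 9.51 ± 2.50 and 12.02 ± 3.12 FPKM (SD, n = 6 each). On the log2 scale the fold change was -0.34 ± 0.19 (SE), the largest in size of the 9, with an interval from -0.75 to 0.07, an edgeR p of 0.0936 and an adjusted p of 0.912. With 1 library left out it ran from -0.48 without Laiwu 4 to -0.25 without Laiwu 3. The edgeR p was 0.0169 without Laiwu 4 (adjusted 0.943) and 0.0269 without Yorkshire 5 (adjusted 0.999). In a fit that blocks on the library number the edgeR p was 0.0467 (adjusted 0.921). HK1, the general isoform, named after its values were seen, was scarcer at 1.87 ± 0.326 and 2.32 ± 1.23 FPKM.

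**Figure D3:**
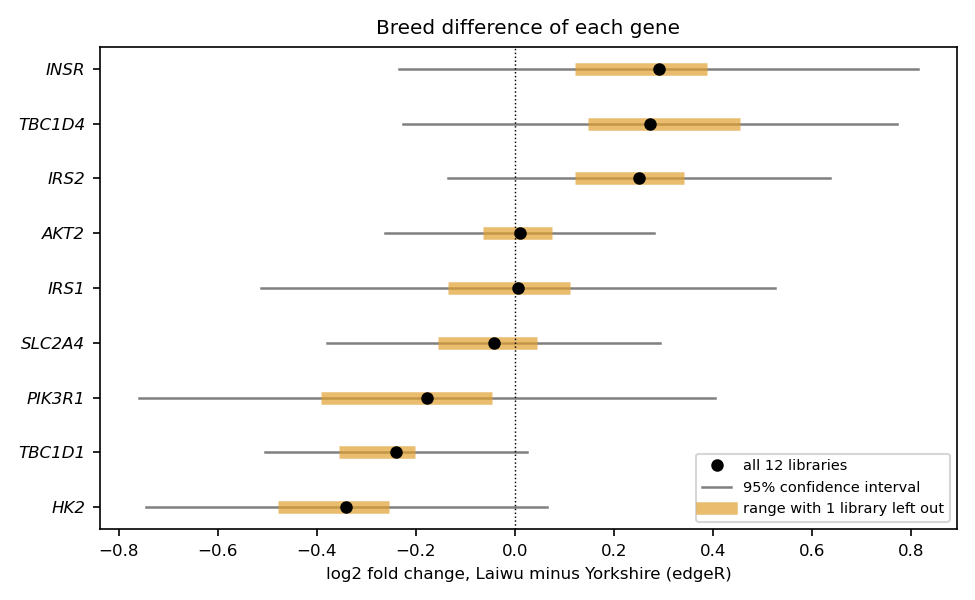
Log2 fold change of each gene, Laiwu minus Yorkshire, from edgeR (points), with its 95% confidence interval (thin lines) and the range of estimates with 1 library left out (thick bars). All 9 intervals include 0, and the thick bars of IRS1, AKT2 and SLC2A4 include 0 as well.

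To see which of these genes varied together from library to library, 63 relations were computed over the 12 libraries, with log2 CPM centred within each breed: 36 pairs of the 9 genes, and each gene against PDK4, a slow fibre marker score and the adipocyte marker score. PDK4 encodes a kinase that rises in fasting muscle and holds back glucose oxidation. By Pearson's r, 0 of 63 relations passed a permutation test after Benjamini-Hochberg adjustment, and by Spearman's rho 2 did, both between genes of the pathway. These were IRS1 with TBC1D4 and IRS2 with PIK3R1.

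IRS1 and TBC1D4 rose and fell together across libraries by rank. Spearman's rho was 0.937 (permutation p = 0.00047, adjusted 0.0261) and Pearson's r was 0.909 (permutation p = 0.00215, adjusted 0.109), n = 12. Within Laiwu r was 0.677 (exact permutation p = 0.158) and within Yorkshire it was 0.951 (exact permutation p = 0.0222). The libraries farthest from the median of IRS1 were Yorkshire 3 and Yorkshire 5, and without them r was 0.791. Both genes were low in those libraries, while the correlation of the deviation with gene length was -0.417 in Yorkshire 5 and 0.0690 in Yorkshire 3. Of 9867 other tested genes with a symbol, 87 (0.882%) had an r over 0.9 with IRS1. The named genes closest to it were MYORG (r = 0.966) and RCSD1 (r = 0.960), given as a description of 12 libraries. What sets this pattern was not tested.

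IRS2 and PIK3R1 moved in opposite directions by rank. Spearman's rho was -0.881 (permutation p = 0.00083, adjusted 0.0261) and Pearson's r was -0.805 (permutation p = 0.00519, adjusted 0.109), n = 12. Within Laiwu r was -0.928 (exact permutation p = 0.00556) and within Yorkshire -0.532 (exact permutation p = 0.256). Without Laiwu 1 and Laiwu 3, the libraries farthest from the median of IRS2, r was -0.632. In Laiwu 1 IRS2 was lowest of its breed at 2.48 FPKM and PIK3R1 highest at 13.8 FPKM, and in Laiwu 3 IRS2 was highest at 5.59 FPKM and PIK3R1 lowest at 4.94 FPKM. The genes whose pattern was most like that of IRS2 were ZFYVE1 (r = 0.882) and PGM2 (r = 0.880), over the same 12 libraries, and no gene had an r over 0.9 with it.

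Of the 27 relations with PDK4 and the marker scores, 0 passed by either measure. The strongest was that of PIK3R1 with the slow fibre score, in which PIK3R1 was high where slow fibre genes were low. Pearson's r was -0.830 (permutation p = 0.00498, adjusted 0.109) and Spearman's rho -0.755 (permutation p = 0.00785, adjusted 0.165), n = 12, with r at -0.850 within Laiwu (exact permutation p = 0.0806) and -0.788 within Yorkshire (exact permutation p = 0.05), and -0.666 without Laiwu 1 and Laiwu 4. Pearson's r with the slow fibre score was also below 0 for TBC1D4, at -0.577 (permutation p = 0.0175, adjusted 0.221). For IRS1 it was -0.472 (permutation p = 0.0572, adjusted 0.360), and for IRS2, INSR, AKT2 and TBC1D1 it was above 0. The 11 slow fibre markers of the table summed to between 710.5 and 2988 FPKM in Laiwu and between 1619 and 3546 FPKM in Yorkshire, and none was at 0. Of these 11, 10 had a fold change below 0 in Laiwu, with a median log2 fold change of -0.45, 0 at an unadjusted p under 0.05 and 0 called. Of 12 fast fibre markers, 9 were below 0 and 3 above, with a median of -0.125, and again 0 at an unadjusted p under 0.05. PDK4 itself spanned 2.51 to 155.7 FPKM in Laiwu and 2.30 to 100.9 FPKM in Yorkshire, so the libraries differed widely in this gene within each breed. The strongest relation of PDK4 was with AKT2, at a Pearson's r of 0.721 (permutation p = 0.0167, adjusted 0.221). Next came IRS1, at -0.651 (permutation p = 0.0347, adjusted 0.273).

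**Figure D4:**
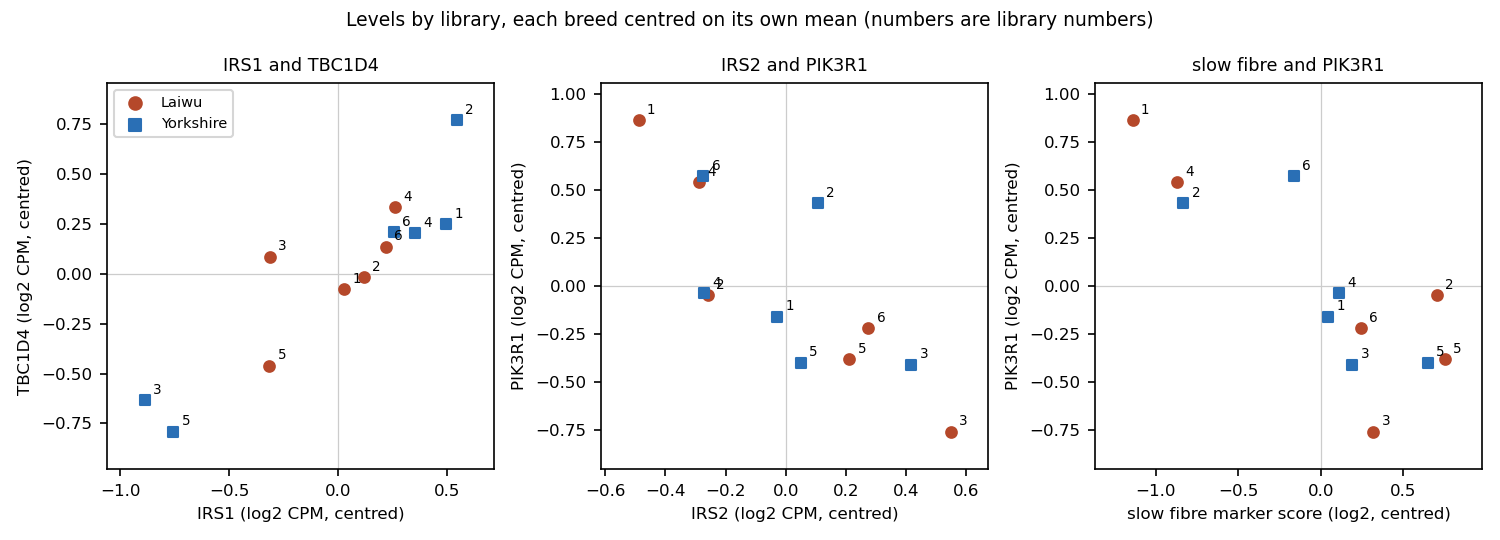
Log2 CPM of TBC1D4 against IRS1, of PIK3R1 against IRS2 and of PIK3R1 against the slow fibre marker score, each centred on its breed mean, with circles for Laiwu, squares for Yorkshire and numbers for the library. Yorkshire 3 and Yorkshire 5 lie at the lower left of the first panel, and Laiwu 1 and Laiwu 3 lie at opposite ends of the second.

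SLC2A4 and HK2, the transporter and the kinase that act in sequence on glucose, showed no detectable relation over 12 libraries. Pearson's r was 0.0349 (permutation p = 0.925, adjusted 0.943) and Spearman's rho -0.0769 (permutation p = 0.827, adjusted 0.935). The genes whose pattern was most like that of SLC2A4 were TSPAN7 (r = 0.928) and TUBGCP2 (r = 0.889). Those most like HK2 were ANAPC7 (r = 0.956) and MINDY2 (r = 0.916), the latter at a mean of only 0.596 FPKM.

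The other genes of the pathway were taken as 8 lists with 108 genes in all, of which 105 were in the table and 92 were tested. None of the 92 passed the edgeR test at an adjusted p under 0.05, with 46 fold changes above 0, 46 below and a median of 0.000236 on the log2 scale. At an unadjusted p under 0.05 there were 2, or 2.17%, against 4.44% of all genes tested. These 2, named after their values were seen, were TRARG1 and SLC2A4RG. TRARG1 encodes a membrane protein of SLC2A4 vesicles that is abundant in fat cells. Laiwu libraries ran from 1.10 to 6.67 FPKM around a mean of 3.69 ± 2.16, and Yorkshire libraries from 0.455 to 2.72 FPKM around 1.45 ± 0.968 (SD, n = 6 each), which gave a log2 fold change of 1.31 ± 0.50 (SE) with an edgeR adjusted p of 0.912. Beside it, 10 of the 13 tested adipocyte markers had a fold change above 0, with a median log2 fold change of 0.73. At an unadjusted p under 0.05 there were 7 of the 13 (ADIPOQ, PLIN1, CIDEC, CIDEA, FABP4, PPARG and LIPE) and 0 were called after adjustment, and their part in the TRARG1 difference was not tested. SLC2A4RG encodes a factor that binds the SLC2A4 promoter. Its means were 10.3 ± 2.17 FPKM in Laiwu and 14.6 ± 3.77 in Yorkshire, for a log2 fold change of -0.52 ± 0.19 (SE) with an edgeR adjusted p of 0.912.

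Upstream, the list of receptor partners and adaptors had 10 tested members, 0 called, 6 above 0 and 4 below, with a median of 0.11. Its most abundant genes were FLOT1, a lipid raft protein, at 55.0 ± 7.44 and 60.6 ± 8.12 FPKM, and CAV3, the caveolin of muscle, at 48.7 ± 9.98 and 53.3 ± 10.4 FPKM. The brakes on the receptor and its substrates had 9 tested members, 0 called, 2 above 0 and 7 below, with a median of -0.10. GRB10, an adaptor that inhibits the receptor, was at 22.8 ± 5.35 and 23.9 ± 5.30 FPKM. SOCS3, an inducible inhibitor of cytokine and insulin signalling, spread from 1.36 to 16.3 FPKM in Laiwu and from 0.911 to 36.3 FPKM in Yorkshire, and its log2 fold change of -0.92 had an SE of 0.94.

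Genes of phosphoinositide 3-kinase and the phosphatases that remove its product had 10 tested members, 0 called, 5 above 0 and 5 below, with a median of 0.04. INPPL1, a lipid phosphatase also called SHIP2, was at 37.8 ± 2.83 and 37.5 ± 3.70 FPKM. INPP5A, which acts on soluble inositol phosphates, was at 9.42 ± 0.744 and 10.03 ± 1.39 FPKM. Kinases and phosphatases around AKT had 12 tested members, 0 called, 7 above 0 and 5 below, with a median of 0.09. They were led by PPP2R5A, a regulatory subunit of protein phosphatase 2A, at 22.9 ± 1.21 and 23.3 ± 2.24 FPKM, and by MAPKAP1, a subunit of mTOR complex 2, at 14.8 ± 1.26 and 15.5 ± 1.76 FPKM. The list of AKT targets outside glucose transport also takes in genes that act with or after such targets, among them RHEB and RPS6KB1. It had 13 tested members, 0 called, 6 above 0 and 7 below, with a median of -0.06. AKT1S1, an inhibitor of mTOR complex 1, was at 26.1 ± 2.69 and 27.1 ± 4.05 FPKM, and the transcription factor FOXO4 at 21.3 ± 2.53 and 20.9 ± 2.95 FPKM.

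Downstream, the genes of SLC2A4 vesicle traffic had 23 tested members, 0 called, 12 above 0 and 11 below, with a median of 0.01. RAC1, a GTPase of the actin cytoskeleton, was at 61.1 ± 4.57 and 64.6 ± 8.85 FPKM, and RAB10, a RAB GTPase that TBC1D4 switches off, at 60.3 ± 6.79 and 58.2 ± 8.14 FPKM. Other sugar transporters and hexokinases were scarce, and only 6 of the 12 in the table passed the minimum of 0.5 FPKM, with 0 called, 2 above 0 and 4 below. SLC2A12, a transporter of muscle and fat, led them at 4.47 ± 0.842 and 3.78 ± 1.12 FPKM, and G6PC3, a glucose 6-phosphatase, followed at 2.55 ± 0.597 and 2.65 ± 0.514 FPKM. SLC2A1, the transporter of basal glucose uptake, named after its values were seen, stood at 1.46 ± 0.640 and 1.38 ± 0.281 FPKM, far below SLC2A4. Regulators of SLC2A4 transcription had 9 tested members, 0 called, 6 above 0 and 3 below, with a median of 0.15. MEF2A and MEF2C, factors that bind the SLC2A4 promoter, were at 43.5 ± 8.42 and 37.1 ± 8.69 FPKM and at 39.5 ± 5.51 and 35.3 ± 6.27 FPKM. Values in this account of the lists are means ± SD over 6 libraries, Laiwu first, and for each of them the adjusted p by edgeR was 0.912 or higher.

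**Figure D5:**
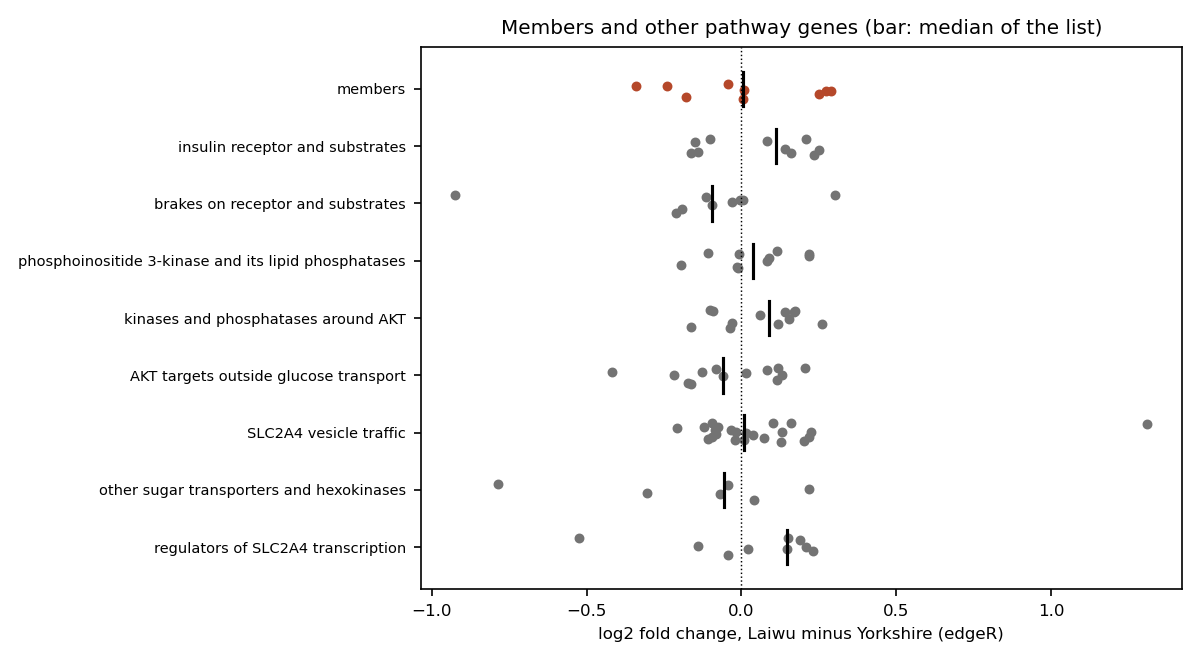
Log2 fold change, Laiwu minus Yorkshire, of the 9 genes and of the tested genes of 8 lists of the same pathway, 1 point per gene, with a bar at the median of each list. Medians lie between -0.10 and 0.15, and TRARG1 at 1.31 and SOCS3 at -0.92 are the farthest points.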

How the data were processed

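The deposited file holds whole-number counts and FPKM values for each gene in each library, per the file headers. Poly(A) RNA was sequenced with a strand-marking kit, per the labels' protocols. No source used here states whether counting was stranded, and no tested gene of the table overlapped the 9 members. Reads were aligned by the authors with HISAT2 2.2.1 to Sscrofa11.1, per the design text. StringTie 1.3.4d, cutadapt 1.9, edgeR and DESeq2 appear without a role, per the submitters' processing notes.

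Members and lists were chosen with earlier results of these data known. The 11205 genes averaging 0.5 FPKM or more were tested with edgeR 4.0.16 (R 4.3.3), TMM, robust quasi-likelihood, Laiwu minus Yorkshire, no covariate. The SE is the fold change over the root of F. The edgeR script was also tested on simulated data, which enter no value given here. A count of 0 allows 3 counts, or 0.0446 to 0.0546 CPM (counting error only). The AKT1 to AKT2 ratio planned could not be computed. Relations used 100000 permutations within breeds, and exact permutation of pairings within 1 breed (SciPy 1.17.1). Alternatives used limma 3.58.1 and DESeq2 1.42.0. Named were all members, the 2 most abundant genes of each list, PDK4 and, for 4 members, the 2 genes of highest r. Libraries of a breed differed by a mean chi-square per gene of 32.4 (Yorkshire 1 and Yorkshire 4, the closest pair) or at least 80.3 (all other pairs), beyond counting noise, so none was counted as a repeat of another. This does not show that they come from separate animals. Same-numbered libraries of the breeds had deviations correlated from -0.272 to 0.331, which neither shows nor excludes that the numbers pair them.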

Additional observations from a re-analysis of the deposited data

Results flagged for a closer look

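In 22 groups of 6 libraries checked for a value standing apart (9 genes and 2 ratios in each breed), 2 held one by Dixon's 95% criterion, where chance gives about 1 in 20. IRS2 in Yorkshire 3 was at 4.63 FPKM, and the next Yorkshire library was at 3.11 FPKM. TBC1D1 in Laiwu 3 was at 2.78 FPKM, and the next Laiwu library was at 1.85 FPKM.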

How the results depend on the processing

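The count of called members stayed at 0 of 9 under every alternative run, namely DESeq2 size factors, library size alone, DESeq2, limma with a pseudocount of 1 or 0.1, no low-value filter, a minimum mean of 5 FPKM (which leaves out IRS2, INSR and TBC1D1), a replicate block and each library left out. The count over all genes was 0 except for DESeq2, which called 1, CILP (adjusted p = 0.0121). At an unadjusted p under 0.05 edgeR had 498 genes (4.44%), DESeq2 569 and limma 404. edgeR had 1715 of 23271 (7.37%) with no low-value filter, and from 284 without Laiwu 3 and 293 without Yorkshire 5 to 610 without Yorkshire 4 and 656 without Yorkshire 2. With 1 library left out, 3 members changed sign in some fits: IRS1 ran from -0.135 to 0.111, AKT2 from -0.0639 to 0.0754 and SLC2A4 from -0.155 to 0.0451. The other 6 members kept their direction. The log2 ratio difference of IRS1 to IRS2 ran from -0.39 to 0.0443 and that of TBC1D1 to TBC1D4 from -0.79 to -0.44 with 1 library left out. Relations past the adjusted threshold numbered 0 by Pearson's r and 2 by Spearman's rho. By Pearson's r they numbered 0 to 1 with 1 library left out, the 1 being IRS1 with TBC1D4 without Laiwu 3. No values with a library left out are given here for Spearman's rho. The replicate block assumes a pairing of same-numbered libraries that is neither shown nor excluded here. It gave 433 genes at an unadjusted p under 0.05 and 0 called. The cause of these changes was not tested.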
